A study of Mus musculus with 514 samples.

Results

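The 10 genes described here carry glucose into the cell and along glycolysis: Slc2a1 and Slc2a3, Hk1 and Hk2, Pfkl and Pfkp, Gpi1, Aldoa, Pgk1 and Pkm. They were chosen by name from the 55168 named genes of the full-length expression table, without a threshold on a measured value. Earlier results of these data were known when the list was drawn up. Each was followed through 5 stages of mouse development, from the unfertilised oocyte to the 8-cell embryo, and across knockouts of the orphan nuclear receptors Nr5a2 and Esrrb. Each library came from a single oocyte or embryo, from polyadenylated RNA amplified with a protocol derived from FLASH-seq, which reads transcripts along their full length and tags a subset of 5′ reads with unique molecular identifiers (UMI). The values are TPM (transcripts per 1000000), a level that accounts for gene length and therefore allows genes to be compared.

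Glucose enters a cell through facilitative transporters, of which Slc2a1 encodes GLUT1 and Slc2a3 encodes GLUT3. A hexokinase, Hk1 or Hk2, phosphorylates it and so keeps it inside. Glucose phosphate isomerase (Gpi1) turns the product into fructose phosphate, phosphofructokinase adds a further phosphate in a committed, tightly regulated step, and aldolase A (Aldoa) splits the sugar into trioses. Phosphoglycerate kinase (Pgk1) and pyruvate kinase (Pkm) are the ATP-yielding steps. The phosphofructokinase genes Pfkl and Pfkp are named for liver and platelet. The mouse zygote is known to depend on pyruvate rather than glucose, and glucose uptake and use increase towards the blastocyst.

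The full-length table holds 263 libraries in 22 groups. Metaphase II oocytes (MII) were Nrpp, carrying only wild-type or floxed alleles (n = 9), NrHet, heterozygous for the Nr5a2 deletion (n = 18), or NrKO, lacking Nr5a2 (n = 12). In embryo names, mz, m and z stand for a maternal-zygotic, a maternal and a zygotic genotype. Early 2-cell embryos (E2C) were mz_Nrpp (n = 21), mz_NrHet (n = 29), mz_NrKO (n = 22), m_NrKO (n = 18) and z_NrKO (n = 12). Late 2-cell embryos (L2C) were mz_DHet, heterozygous for both deletions (n = 7), mz_EKO, lacking Esrrb (n = 10), mz_NrKO (n = 10), mz_DKO, lacking both (n = 6), z_NrHet (n = 7) and z_NrKO (n = 6). At the 4-cell stage (4C) there were 6 mz_DHet, 4 mz_EKO, 5 mz_NrKO and 10 mz_DKO embryos. At the 8-cell stage (8C) there were 21 mz_DHet embryos and 10 of each of the 3 knockouts. The controls of the late stages thus carry a deleted allele of both genes themselves. The Cre driver, the strain and the ages of the animals are not given in the sources used here, and no mother or litter is named, so the p-values measure the spread between single oocytes or embryos.

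Between 10655 and 15971 genes were above 1 TPM in a library, and since TPM keep no read depth, the depth behind each value is unknown. Esrrb at 8C was 1.72 ± 0.618 TPM (SD, n = 9) in the UMI reads of mz_EKO and 3.3 ± 1.15 TPM (SD, n = 9) in those of mz_DKO, against 41.4 ± 14.1 TPM (SD, n = 16) in mz_DHet. In full-length reads it was 18 ± 8.15, 26.8 ± 10.7 and 47.8 ± 15.5 TPM (SD) in the same order, called as lower in both by limma (-1.56 ± 0.24 SE and -0.96 ± 0.24 SE). At L2C and 4C Esrrb was not called in the full-length reads of mz_EKO or mz_DKO (differences of -0.76 to -0.17), so it does not check those labels. Total Nr5a2 RNA at 8C was not lower in the Nr5a2 knockouts, at 597 ± 241 TPM (SD, n = 10) in mz_NrKO, 778 ± 174 TPM (SD, n = 10) in mz_DKO and 472 ± 144 TPM (SD, n = 21) in mz_DHet, so this total does not check those labels. A pair of 8C libraries stood apart from their groups. The library labelled mz_NrKO 1 held 243 TPM of Cdx2, a trophectoderm transcription factor, against 0 to 6.79 TPM in the other 9. The library labelled mz_DHet 2 held 138 TPM of Ldha, against 0 to 50.9 TPM in the other 20. Its 7.38 TPM of Cdx2 was low but inside the range of those 20, 0.62 to 294 TPM (median 88.3). Both carry the same date in the labels, and the 8C calls of the members are also given without them. At E2C the library labelled mz_NrKO 1 held 1253 TPM of Esrrb and was lowest in its group for Slc2a1, Hk2, Pfkl, Gpi1, Aldoa and Pkm, and highest for Pfkp, at 116 TPM against 9.8 to 61.4 TPM in the other 21. It also had the lowest TPM sum (814735) and the fewest genes above 1 TPM (11030) of its stage.

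In mm10 coordinates, Slc2a1 lies at chr4:119108711-119137983 on the plus strand, Hk1 at chr10:62268855-62379908 and Pfkp at chr13:6579768-6648777, both on the minus strand, and all are protein coding. These 3 genes were the members that differed between genotypes, and their RefSeq promoter windows are shown because the knockouts remove transcription factors. Each window on GRCm38.p6 runs from 250 bases before to 50 bases after an annotated start, is read 5′ to 3′ on the gene's strand, and has in capitals ACGTG, the core of the hypoxia-response element, and GGGCGG, the core of the Sp1 site, or their reverse complements CACGT and CCGCCC. Hk1 has windows at an outer and an inner start, listed in that order.
Slc2a1 promoter, chr4:119108495-119108794, plus strand: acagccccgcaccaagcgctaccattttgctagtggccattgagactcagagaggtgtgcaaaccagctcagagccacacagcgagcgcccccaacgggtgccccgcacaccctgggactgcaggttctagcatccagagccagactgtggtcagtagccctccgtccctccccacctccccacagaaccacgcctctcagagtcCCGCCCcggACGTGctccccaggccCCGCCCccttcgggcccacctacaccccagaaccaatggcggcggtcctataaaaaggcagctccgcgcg
Hk1 outer promoter, chr10:62379859-62380158, minus strand: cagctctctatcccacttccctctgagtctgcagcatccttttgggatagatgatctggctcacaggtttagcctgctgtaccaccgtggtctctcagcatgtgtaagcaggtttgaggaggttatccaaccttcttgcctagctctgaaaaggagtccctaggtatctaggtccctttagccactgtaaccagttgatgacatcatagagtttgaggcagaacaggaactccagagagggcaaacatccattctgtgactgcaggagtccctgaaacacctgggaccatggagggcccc
Hk1 inner promoter, chr10:62340372-62340671, minus strand: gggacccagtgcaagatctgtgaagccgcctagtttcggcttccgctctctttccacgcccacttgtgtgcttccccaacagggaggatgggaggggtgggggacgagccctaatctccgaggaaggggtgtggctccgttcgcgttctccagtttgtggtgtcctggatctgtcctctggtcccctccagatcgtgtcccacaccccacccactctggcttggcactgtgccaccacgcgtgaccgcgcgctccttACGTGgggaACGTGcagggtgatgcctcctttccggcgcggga
Pfkp promoter, chr13:6648722-6649021, minus strand: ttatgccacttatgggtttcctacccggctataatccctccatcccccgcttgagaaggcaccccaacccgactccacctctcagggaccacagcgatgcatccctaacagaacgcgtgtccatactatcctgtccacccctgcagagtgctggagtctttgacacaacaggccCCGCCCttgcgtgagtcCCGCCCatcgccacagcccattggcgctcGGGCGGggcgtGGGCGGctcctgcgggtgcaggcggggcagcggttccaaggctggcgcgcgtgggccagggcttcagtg
The Slc2a1 window holds 1 ACGTG and 2 GGGCGG, the inner Hk1 window 2 ACGTG, the outer one neither, and the Pfkp window 4 GGGCGG. Over both strands, 9 of the 10 members had a window, 13 windows in all. ACGTG stood in 7 of the 13 windows and GGGCGG in 9, where 19.6% and 35.7% of all 32851 RefSeq windows of the same length hold them. Windows of Aldoa overlap, so a site there can be counted more than once. By gene, ACGTG stood in 6 and GGGCGG in 8 of the 9 members. CACGTG holds ACGTG on both strands, and GGGCGG does not overlap it. The letters AAGGTCA, a nuclear receptor element used in describing Esrrb binding, stood in no member's window and in 4.72% of all windows. AAGGCCA, a variant used for Nr5a2, also stood in none, against 6.2% of all. These matches describe the letters of the windows only.

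In control embryos the genes at the entry of the pathway exchanged places between E2C and L2C, while the later enzymes followed courses of their own. Levels are given in control groups, and the tests of development compared neighbouring stages with limma on log2(TPM + 1) and called a gene at an adjusted p under 0.05. MII and E2C libraries share no date with each other or with L2C, so for those steps stage and date cannot be told apart. 4C and 8C libraries share no date either. That step is separated from date only through the L2C embryos in the same fit, which share dates with both stages. A change per embryo also cannot be divided between fewer cells holding an RNA and less of it per cell.

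Slc2a1 was the transporter of the oocyte. It ranged from 11.8 to 33.1 TPM in MII NrHet oocytes (median 22.1, n = 18) and from 27.8 to 64.7 TPM in E2C mz_NrHet embryos (median 40.5, n = 29). It then lay between 0 and 7.38 TPM in L2C mz_DHet (median 1.82, n = 7), between 0 and 3.05 TPM in 4C mz_DHet (median 1.82, n = 6) and between 0 and 28.4 TPM in 8C mz_DHet (median 8.88, n = 21). No L2C control, including the z_NrHet embryos at 0 to 21.6 TPM, reached the lowest E2C mz_NrHet embryo. Slc2a3 ran the other way. It was listed at 0 in 11 of the 18 MII NrHet oocytes and reached 3.52 TPM at most there. In E2C mz_NrHet it spanned 0 to 6.81 TPM (median 0.525), in L2C mz_DHet 12.9 to 71.4 TPM (median 23.1), in 4C mz_DHet 7.17 to 59.4 TPM (median 24) and in 8C mz_DHet 26.2 to 374 TPM (median 94.9). The lowest L2C embryo stood above every E2C embryo of the control groups compared. The share of all genes whose ranges part between E2C and L2C was not counted.

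Of the summed TPM of both transporters, the Slc2a3 share had a median of 1.63% in E2C mz_NrHet (range 0 to 14.3%) and 91.2% in L2C mz_DHet (range 70.4 to 100%). In the other L2C control, z_NrHet, this share had a median of 70.7% (range 29.6 to 100%). It was 91.6% in 4C and 89.3% in 8C mz_DHet. The hexokinases showed a similar split. Hk1 was listed at 0 in 14 of 18 MII NrHet oocytes and 16 of 29 E2C mz_NrHet embryos, and then had a median of 5.77 TPM in L2C, 5.59 TPM in 4C and 32.8 TPM in 8C mz_DHet (ranges 2.33 to 19.4, 5.17 to 12.6 and 4.43 to 53.7 TPM). Hk2 had a median of 19.7 TPM in MII NrHet, 23.5 TPM in E2C mz_NrHet, 3.38 TPM in L2C, 2.44 TPM in 4C and 63.8 TPM in 8C mz_DHet. Its range at 4C, 1.91 to 3.09 TPM, was the narrowest of these, and its range at 8C, 0.705 to 126 TPM, the widest. Hk1 made up a median of 63.1% of the hexokinase pair in L2C mz_DHet, 72.3% in 4C and 32.2% in 8C mz_DHet. In L2C z_NrHet the median was 94.9% (range 16.4 to 100%). Hk2 was listed at 0 in 2 of the 7 L2C mz_DHet and 3 of the 7 L2C z_NrHet embryos.

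Pfkp had its maximum at E2C. Its median was 6.6 TPM in MII NrHet (range 1.04 to 17.9), 33.2 TPM in E2C mz_NrHet (10 to 68.5), 0 in L2C mz_DHet (0 to 1.77), 8.77 TPM in 4C mz_DHet (0 to 13.3) and 2.3 TPM in 8C mz_DHet (0 to 12.7). Pfkl, the other phosphofructokinase, stayed within a narrower band, with means of 48.8 ± 8.62 TPM (SD, n = 18) at MII, 34.7 ± 13.4 TPM (SD, n = 29) at E2C, 52.1 ± 24.2 TPM (SD, n = 7) at L2C, 32.8 ± 16 TPM (SD, n = 6) at 4C and 20.9 ± 13.9 TPM (SD, n = 21) at 8C. Pkm was the highest member at E2C, at 558 ± 124 TPM (SD, n = 29), from 73.2 ± 17.7 TPM (SD, n = 18) in MII, and was 264 ± 115, 96.2 ± 38.2 and 104 ± 35.2 TPM (SD) in L2C, 4C and 8C mz_DHet. Aldoa took the first place by 8C, at 377 ± 127 TPM (SD, n = 21). It stood at 13.3 ± 6.6 TPM (SD) in MII NrHet, 115 ± 29 in E2C mz_NrHet, 182 ± 92 in L2C mz_DHet and 108 ± 37.9 in 4C mz_DHet. Gpi1 followed with 22 ± 8.08 TPM (SD) in MII NrHet, 127 ± 37.2 in E2C mz_NrHet, and 114 ± 33.3, 55.9 ± 18.5 and 67.8 ± 30.5 in the mz_DHet embryos of L2C, 4C and 8C. Pgk1 stood at 19.4 ± 5.75 TPM (SD) at MII, 46 ± 15.2 at E2C and then at 21.9 ± 9.41, 25.3 ± 19.9 and 27.5 ± 10.8 TPM. At 8C mz_DHet the order from the top was Aldoa, Slc2a3, Pkm, Gpi1, Hk2, Hk1, Pgk1, Pfkl, Slc2a1 and Pfkp. The means of neighbours in that order differed by less than the larger of their SDs, except for the steps from Aldoa to Slc2a3 and from Pkm to Gpi1.

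**Figure D1:**
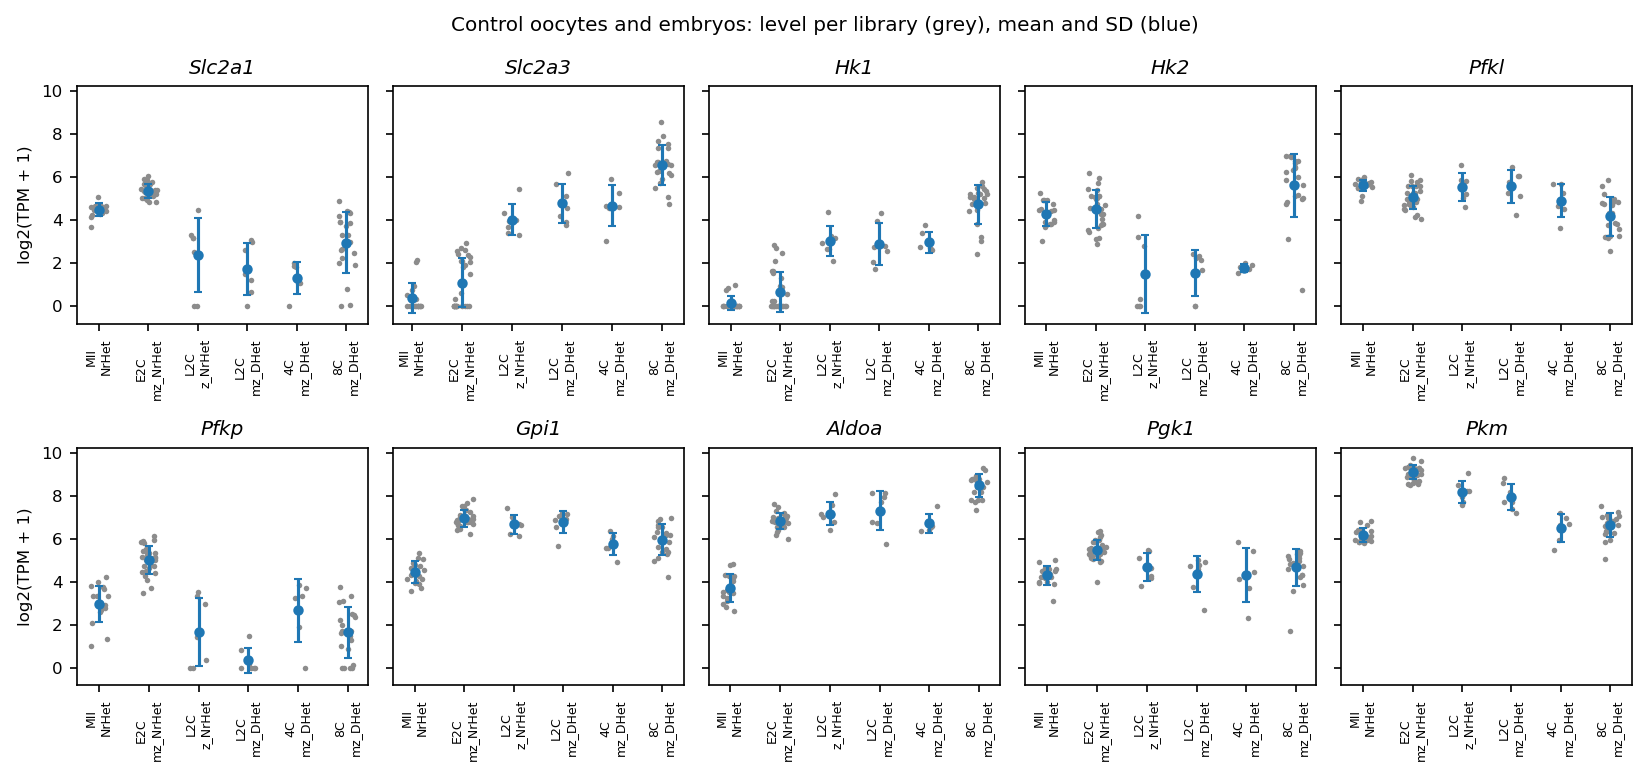
Level of each member in control oocytes and embryos by stage, on a log2(TPM + 1) axis; grey points are single libraries, and blue points with bars the mean and SD of that scale. Slc2a1 lies between 27.8 and 64.7 TPM in the E2C mz_NrHet embryos and Slc2a3 between 0 and 6.81 TPM, and by L2C mz_DHet their order is turned.

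From MII NrHet to E2C mz_NrHet, all 10 members passed the filter on low values and 9 were called, where 73.8% of the 13518 genes tested were called. Higher at E2C were Aldoa (log2 fold change 3.12 ± 0.15 SE, adjusted p = 1.59e-27), Pkm (2.91 ± 0.11, adjusted p = 3.64e-33) and Gpi1 (2.51 ± 0.13, adjusted p = 3.08e-25), whose ranges in the groups did not overlap. The share of all genes without overlap in this step was not counted, so this is no trait particular to these members. Pfkp, Pgk1, Slc2a1, Slc2a3 and Hk1 were also higher, by 2.03 ± 0.26, 1.19 ± 0.15, 0.88 ± 0.19, 0.69 ± 0.29 and 0.51 ± 0.23. Pfkl was lower (-0.55 ± 0.14 SE, adjusted p = 0.000587), and Hk2 was not called (0.25 ± 0.28, adjusted p = 0.43). The calls of Hk1 (adjusted p = 0.0475) and Slc2a3 (adjusted p = 0.0285) rest on values near 0 and were lost under several other settings. The median over all genes was 0.59 in this step, and 0.30 with a median-of-ratios scaling.

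From E2C mz_NrHet to L2C z_NrHet, 8 of the 10 members were called, where 82.4% of genes were. Slc2a3 (2.94 ± 0.40 SE), Hk1 (2.37 ± 0.33) and Pfkl (0.49 ± 0.20, adjusted p = 0.0248) were higher at L2C. Pfkp (-3.34 ± 0.36), Hk2 (-3.02 ± 0.39), Slc2a1 (-2.99 ± 0.27, adjusted p = 4.04e-15), Pkm (-0.92 ± 0.15) and Pgk1 (-0.78 ± 0.21) were lower. The calls of this step thus took one gene of each transporter, hexokinase and phosphofructokinase pair up and its partner down. Gpi1 (-0.27 ± 0.18) and Aldoa (0.35 ± 0.21) were not called. With a median-of-ratios scaling, which moved the median of all genes from -0.48 to -0.04, Pgk1 was no longer called and Aldoa was called as higher. With only the groups compared in the fit, Pfkl was no longer called.

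From L2C to 4C mz_DHet no member was called by limma, with 2 members at an unadjusted p under 0.05 and 0.0221% of genes called. The lowest adjusted p was 0.362, for Gpi1 (-1.15 ± 0.39 SE). From 4C to 8C mz_DHet, 4 members were called against 38.6% of genes: Hk1 (2.72 ± 0.61 SE), Hk2 (2.61 ± 0.81), Slc2a3 (2.34 ± 0.64) and Aldoa (2.09 ± 0.40, adjusted p = 8.11e-06), all higher. In UMI reads Hk1 and Slc2a3 were not called in that step, and Slc2a1, which was not called, differed in sign. Across the longer step from L2C to 8C mz_DHet, which has embryos of 8 March 2022 at both ends, 7 members were called against 50.4% of genes. Hk2 (3.32 ± 0.66), Hk1 (2.45 ± 0.50), Slc2a3 (2.23 ± 0.52) and Aldoa (1.55 ± 0.33) were higher, and Pkm (-1.81 ± 0.47), Pfkl (-1.47 ± 0.55, adjusted p = 0.02) and Gpi1 (-0.86 ± 0.34, adjusted p = 0.0267) lower. The same 7 were called in UMI reads, while a median-of-ratios scaling ended the calls of Pfkl and Gpi1.

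**Figure D2:**
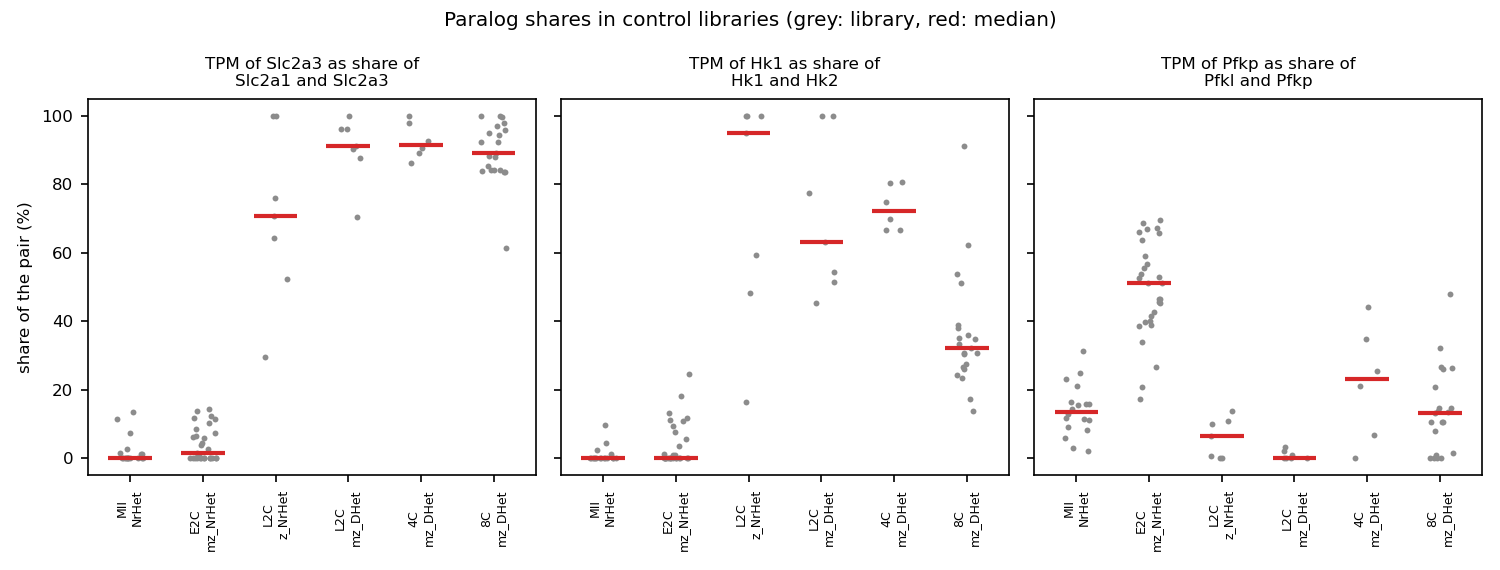
Share of Slc2a3 in the summed TPM of Slc2a1 and Slc2a3, of Hk1 in that of Hk1 and Hk2, and of Pfkp in that of Pfkl and Pfkp, in percent, in control libraries by stage; grey points are single libraries and red bars medians. The Slc2a3 share has a median of 1.63% in E2C mz_NrHet and 91.2% in L2C mz_DHet, and the Pfkp share one of 51.2% and 0% in the same groups. In L2C z_NrHet the medians of these shares are 70.7% and 6.64%.

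No member was called in any comparison of genotypes before the 8-cell stage. In MII oocytes 8 members passed the filter on low values (Slc2a3 and Hk1 did not) and limma called none in any of 3 comparisons. NrKO against NrHet had 1 member at an unadjusted p under 0.05, with 0.212% of genes called; NrKO against Nrpp had 2, with 1.2% called, and NrHet against Nrpp 1, with 0.0335% called. The closest to a call was Slc2a1. It ranged from 11.1 to 26.3 TPM in Nrpp (median 19.2, n = 9), 11.8 to 33.1 TPM in NrHet (median 22.1, n = 18) and 17.7 to 34.7 TPM in NrKO oocytes (median 28.4, n = 12). The NrKO oocytes were toward the top of these overlapping ranges, with a difference from Nrpp of 0.52 ± 0.15 SE on the log2 scale and an adjusted p of 0.0636. Hk2, the hexokinase of the oocyte, differed by 0.56 ± 0.21 SE in the same comparison (adjusted p = 0.159). In the authors' deposited table Slc2a1 had a log2 fold change of 0.47 and an FDR of 0.0835 in that comparison.

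At E2C, 9 members passed the filter, Hk1 being too low, and none was called in any of 6 comparisons. In mz_NrKO against mz_NrHet no member had an unadjusted p under 0.05, where 5.17% of genes were called. Slc2a1 spanned 27.8 to 64.7 TPM in mz_NrHet (median 40.5), 3.33 to 56.4 TPM in mz_NrKO (median 38.2), 15.7 to 69.1 TPM in m_NrKO (median 43.6) and 24.6 to 60.3 TPM in z_NrKO embryos (median 44.3). Pkm, the most abundant member there, spanned 358 to 852 TPM in mz_NrHet (median 598), 126 to 811 TPM in mz_NrKO (median 622), 333 to 1013 TPM in m_NrKO (median 589) and 383 to 817 TPM in z_NrKO (median 585). The groups covered one another for both genes. Log2 differences of the members lay between -0.23 and 0.02 in mz_NrKO, with standard errors of 0.10 to 0.30. Against the same mz_NrHet controls, m_NrKO and z_NrKO had no member at an unadjusted p under 0.05, with 0.245% and 0% of all genes called (701 genes at an unadjusted p under 0.05 in z_NrKO). Against mz_Nrpp, mz_NrKO had 1 such member and 1.79% of genes called, and mz_NrHet 2 such members and 0.268% called. Between mz_NrKO and m_NrKO there was 1 such member, with 0% of genes called and 918 at an unadjusted p under 0.05. These shares of all genes depended on the library labelled mz_NrKO 1. Without it they were 3.14% in m_NrKO and 0.00767% in z_NrKO against mz_NrHet. Likewise they were 0.775% in mz_NrHet against mz_Nrpp and 0.0153% between mz_NrKO and m_NrKO. By which part of the fit that library moved them was not tested.

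Aldoa and Hk2 were the members nearest to a difference from mz_Nrpp. Aldoa had a median of 104 TPM in mz_Nrpp (range 42.5 to 136), 113 TPM in mz_NrHet (63.3 to 198) and 106 TPM in mz_NrKO (28.6 to 178), and the difference of mz_NrKO from mz_Nrpp was 0.24 ± 0.12 SE (adjusted p = 0.337). Heterozygous controls stood as far from mz_Nrpp, by 0.27 ± 0.11 SE (adjusted p = 0.436). Without the library labelled mz_NrKO 1 the Aldoa difference was 0.34 and called. The authors' deposited table gives Aldoa a log2 fold change of 0.48 with an FDR of 0.0105 in mz_NrKO, and 0.43 with 0.0228 in m_NrKO, both against mz_Nrpp. Hk2 had a median of 37.3 TPM in mz_Nrpp (range 13.7 to 92.2), 23.5 TPM in mz_NrHet and 19.2 TPM in mz_NrKO (2.96 to 62.8), a difference of -0.56 ± 0.27 SE for mz_NrKO (adjusted p = 0.286). In the authors' deposited table this is -0.83 with an FDR of 0.0175.

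At L2C all 10 members were tested and none was called in 4 comparisons. The background was low as well. Of all genes, 0.127% were called in mz_NrKO, 0% in mz_EKO (947 at an unadjusted p under 0.05) and 0.141% in mz_DKO against mz_DHet, and 0.099% in z_NrKO against z_NrHet. Hk1 was 2.33 to 19.4 TPM in mz_DHet (median 5.77) and 1.43 to 8.49 TPM in mz_DKO (median 2.65), with overlapping ranges and a difference of -0.87 ± 0.65 SE (adjusted p = 0.799); the authors' deposited table has it lower there, with an FDR of 0.0404. The only member under an unadjusted p of 0.05 was Pgk1 in mz_NrKO, with 21.2 to 84.1 TPM (median 29.4, n = 10) against 5.42 to 31 TPM in mz_DHet (median 25.3, n = 7). The ranges overlapped, and the log2 difference of 1.10 ± 0.49 SE had an adjusted p of 0.533. All 10 mz_NrKO embryos are of 8 March 2022, while 2 mz_DHet embryos are of that date and 5 of 22 May. Ranges in TPM at this stage are therefore compared across dates, and only the fitted differences take the date into account. Slc2a1 ranged from 0.582 to 15 TPM in mz_NrKO and from 0.181 to 20.2 TPM in mz_DKO, with 0 to 7.38 TPM in mz_DHet. Standard errors of 0.34 to 0.99 on the log2 scale in the comparisons with mz_DHet set a wide limit on what could be seen at this stage.

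At 4C again no member was called, with 0.675% of genes called in mz_NrKO, 0% in mz_EKO (803 at an unadjusted p under 0.05) and 2.58% in mz_DKO, all against the same 6 mz_DHet embryos. Hk2 came nearest. The 10 mz_DKO embryos lay between 3.31 and 83.6 TPM (median 7.65) and the 6 mz_DHet embryos between 1.91 and 3.09 TPM (median 2.44). The 4 mz_EKO embryos lay between 0 and 0.772 TPM. How many of all genes have ranges set apart in this way was not counted. Dates differ between the groups as well. Of 17 June and 22 May 2022 there are 5 and 1 mz_DHet, 1 and 3 mz_EKO, 2 and 3 mz_NrKO, and 9 and 1 mz_DKO embryos. In UMI reads Hk2 was near 0 and the ranges overlapped, at 0 to 4.59 TPM in mz_DKO, 0 to 2.1 TPM in mz_DHet and 0 to 0.478 TPM in mz_EKO. The mz_DKO difference was 1.65 ± 0.62 SE (adjusted p = 0.199) and the mz_EKO difference -1.22 ± 0.86 SE (adjusted p = 0.868). In the authors' deposited table Hk2 has a log2 fold change of 2.17 with an FDR of 0.0209 in 4C mz_DKO. Aldoa in mz_NrKO spanned 48.7 to 368 TPM (median 217, n = 5) against 80.9 to 182 TPM in mz_DHet (median 93.3, n = 6), a difference of 0.77 ± 0.37 SE (adjusted p = 0.43). One mz_NrKO embryo decided that value: without mz_NrKO replicate 4 the difference was 1.14 and called.

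At 8C the Nr5a2 knockouts differed from controls in 3 of the 10 members: a transporter, a hexokinase and a phosphofructokinase. Slc2a1 and Hk1 were lower and Pfkp was higher in both mz_NrKO and mz_DKO. All 10 members passed the filter. The 3 calls of mz_NrKO stand beside 28.3% of all 10876 genes called in that comparison and the 3 calls of mz_DKO beside 33.7%, so the share of members called was close to that of genes at large. Both comparisons, and that of mz_EKO, used the same 21 mz_DHet embryos. The median log2 difference of the members was -0.39 in mz_NrKO and -0.05 in mz_DKO, with 0.00 and 0.05 over all genes tested.

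Slc2a1, the GLUT1 transporter, had a median of 8.88 TPM in mz_DHet (range 0 to 28.4), 1.85 TPM in mz_NrKO (0 to 7.7) and 0.244 TPM in mz_DKO (0 to 6.2). It was listed at 0 in 1 of 21 mz_DHet, 2 of 10 mz_NrKO and 5 of 10 mz_DKO embryos. Every mz_NrKO and every mz_DKO embryo was below the mz_DHet median, while the ranges overlapped at the low end. The log2 difference was -1.46 ± 0.45 SE in mz_NrKO (adjusted p = 0.0108) and -2.41 ± 0.45 SE in mz_DKO (adjusted p = 2.96e-05). Because Slc2a1 is low, its size depends on the pseudocount: in mz_DKO it was -4.05 with 0.1 TPM and -1.24 with 5 TPM added, and in mz_NrKO -2.22 and -0.81.

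Hk1, a hexokinase that binds mitochondria, had a median of 32.8 TPM in mz_DHet (range 4.43 to 53.7), 13.9 TPM in mz_NrKO (0.973 to 38.9) and 14.9 TPM in mz_DKO (4.84 to 29.9). In mz_NrKO 9 of 10 embryos, and in mz_DKO all 10, were below the control median, with overlapping ranges. The log2 difference was -0.97 ± 0.25 SE in mz_NrKO (adjusted p = 0.00211) and -1.17 ± 0.25 SE in mz_DKO (adjusted p = 0.000189). With no date factor the mz_DKO difference was -0.82 and not called (adjusted p = 0.0583).

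Pfkp, the platelet-type phosphofructokinase, had a median of 2.3 TPM in mz_DHet (range 0 to 12.7), 11.7 TPM in mz_NrKO (0.369 to 33.9) and 18 TPM in mz_DKO (8.6 to 35.5). In mz_NrKO 9 of 10 embryos, and in mz_DKO all 10, stood above the control median. The log2 difference was 1.91 ± 0.42 SE in mz_NrKO (adjusted p = 0.000388) and 2.42 ± 0.42 SE in mz_DKO (adjusted p = 8.58e-06). The highest control, at 12.7 TPM, was the library labelled mz_DHet 2, and the lowest mz_NrKO embryo, at 0.369 TPM, the library labelled mz_NrKO 1. The other 20 controls reached 9 TPM at most and the other 9 mz_NrKO embryos began at 2.9 TPM.

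**Figure D3:**
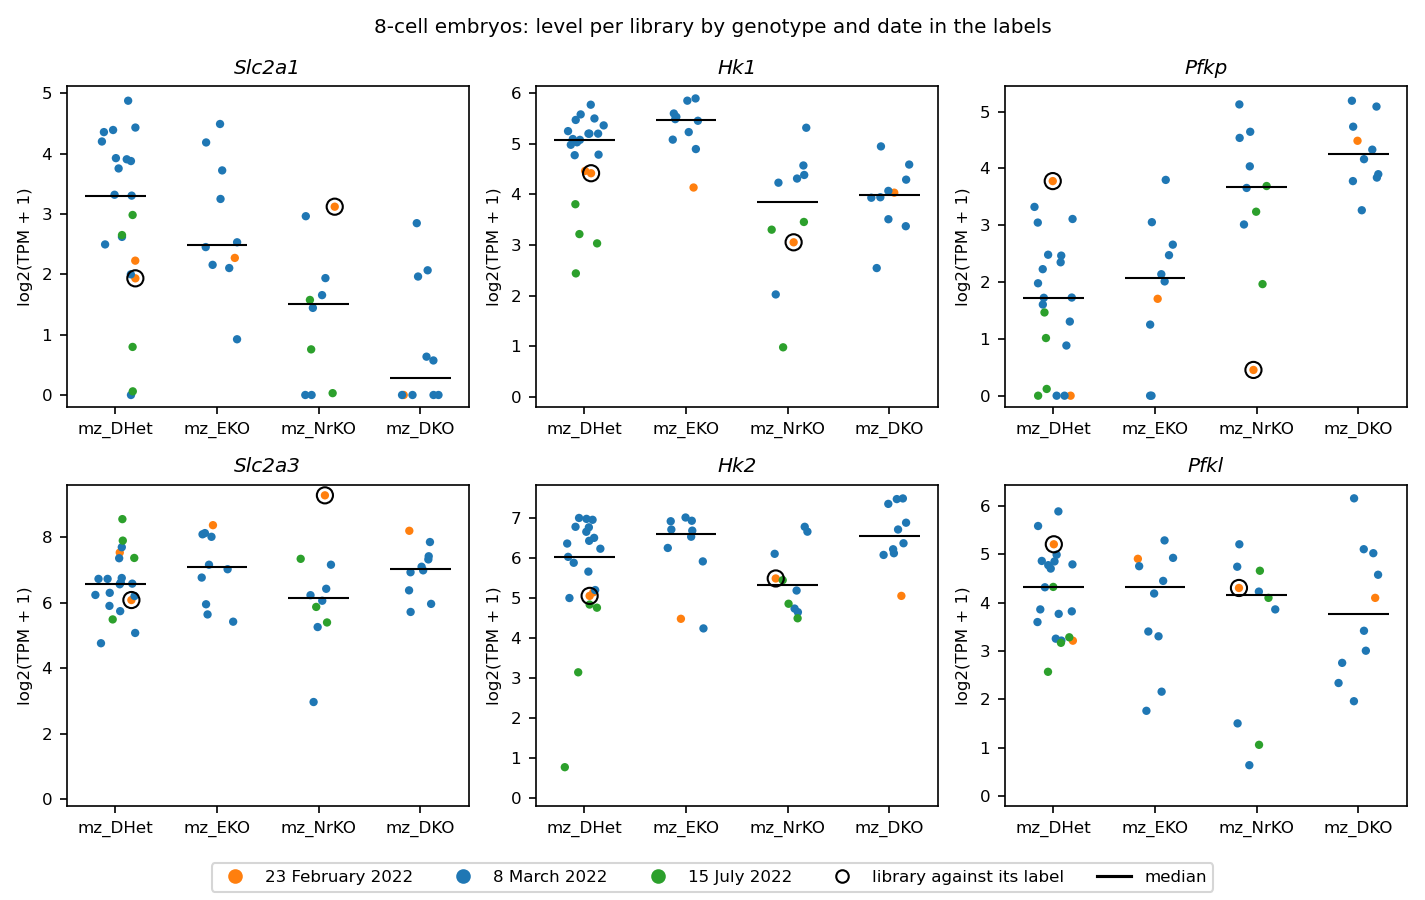
Level of 6 members at 8C by genotype on a log2(TPM + 1) axis; points are single embryos coloured by the date in the labels, bars are medians, and rings mark the libraries labelled mz_DHet 2 and mz_NrKO 1. Medians of Slc2a1 are 8.88 TPM in mz_DHet and 0.244 TPM in mz_DKO, and those of Pfkp 2.3 and 18 TPM.

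The other 7 members were not called in either Nr5a2 knockout. Hk2 had a median of 63.8 TPM in mz_DHet (range 0.705 to 126), 38.8 TPM in mz_NrKO (21.4 to 108) and 91.8 TPM in mz_DKO (32 to 177), differences of 0.05 ± 0.33 SE and 0.55 ± 0.34 SE. Slc2a3 had a median of 94.9 TPM in mz_DHet (26.2 to 374), 70 TPM in mz_NrKO (6.85 to 619) and 131 TPM in mz_DKO (51.7 to 292), differences of -0.47 ± 0.37 SE and 0.54 ± 0.38 SE. So the second member of the transporter pair and of the hexokinase pair did not pass the test where the first did. Pfkl differed by -0.69 ± 0.46 SE in mz_NrKO and -0.48 ± 0.46 SE in mz_DKO, and Gpi1 by -0.30 ± 0.22 SE and -0.00 ± 0.22 SE. Aldoa, the most abundant member, had medians of 426, 353 and 397 TPM in mz_DHet, mz_NrKO and mz_DKO, and differed by -0.05 ± 0.17 SE and -0.10 ± 0.17 SE. For Pgk1 the differences were 0.30 ± 0.31 SE and 0.33 ± 0.32 SE. Pkm differed by -0.53 ± 0.38 SE in mz_NrKO (adjusted p = 0.32) and -0.78 ± 0.39 SE in mz_DKO (adjusted p = 0.118), and its spread widened, from 32.7 to 183 TPM in mz_DHet to 5.05 to 265 TPM in mz_DKO. Without mz_DKO replicate 9 the mz_DKO difference of Pkm was -1.03 and called.

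Loss of Esrrb alone gave no call among the members, by limma, with no member at an unadjusted p under 0.05 and 0.00919% of genes called, which is 1 gene. In mz_EKO, Slc2a1 had a median of 4.63 TPM (range 0.897 to 21.5), Hk1 43.4 TPM (16.6 to 58.6) and Pfkp 3.22 TPM (0 to 12.9). The differences from mz_DHet were -0.41 ± 0.45 SE (95% interval -1.30 to 0.48), 0.22 ± 0.25 SE (-0.27 to 0.71) and 0.05 ± 0.42 SE (-0.78 to 0.88). Set directly against mz_EKO, mz_DKO was lower in Slc2a1 (95% interval of the log2 difference -3.01 to -0.99, adjusted p = 0.00209) and Hk1 (-1.39 ± 0.29 SE, adjusted p = 0.000135) and higher in Pfkp (2.37 ± 0.48 SE, adjusted p = 0.000122), with 30.2% of all genes called. Against mz_EKO, mz_NrKO was lower in Hk1 (-1.19 ± 0.30 SE, adjusted p = 0.00237) and higher in Pfkp (1.86 ± 0.50 SE, adjusted p = 0.00505), with 22.7% of genes called. Slc2a1 did not pass there (-1.05 ± 0.54 SE, adjusted p = 0.159), nor did Slc2a3 (-1.08 ± 0.45 SE, adjusted p = 0.0755).

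The double knockout did not differ detectably from the Nr5a2 knockout. No member was called by limma between mz_DKO and mz_NrKO, with 1 member at an unadjusted p under 0.05 and 0.147% of genes called. Slc2a1 differed by -0.95 ± 0.54 SE (95% interval -2.01 to 0.10, adjusted p = 0.572), Pfkp by 0.51 ± 0.50 SE (adjusted p = 0.793), Hk1 by -0.20 ± 0.30 SE and Slc2a3 by 1.01 ± 0.45 SE (adjusted p = 0.449). The interval of Slc2a1 still reaches a difference larger than the one between mz_NrKO and mz_DHet.

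**Figure D4:**
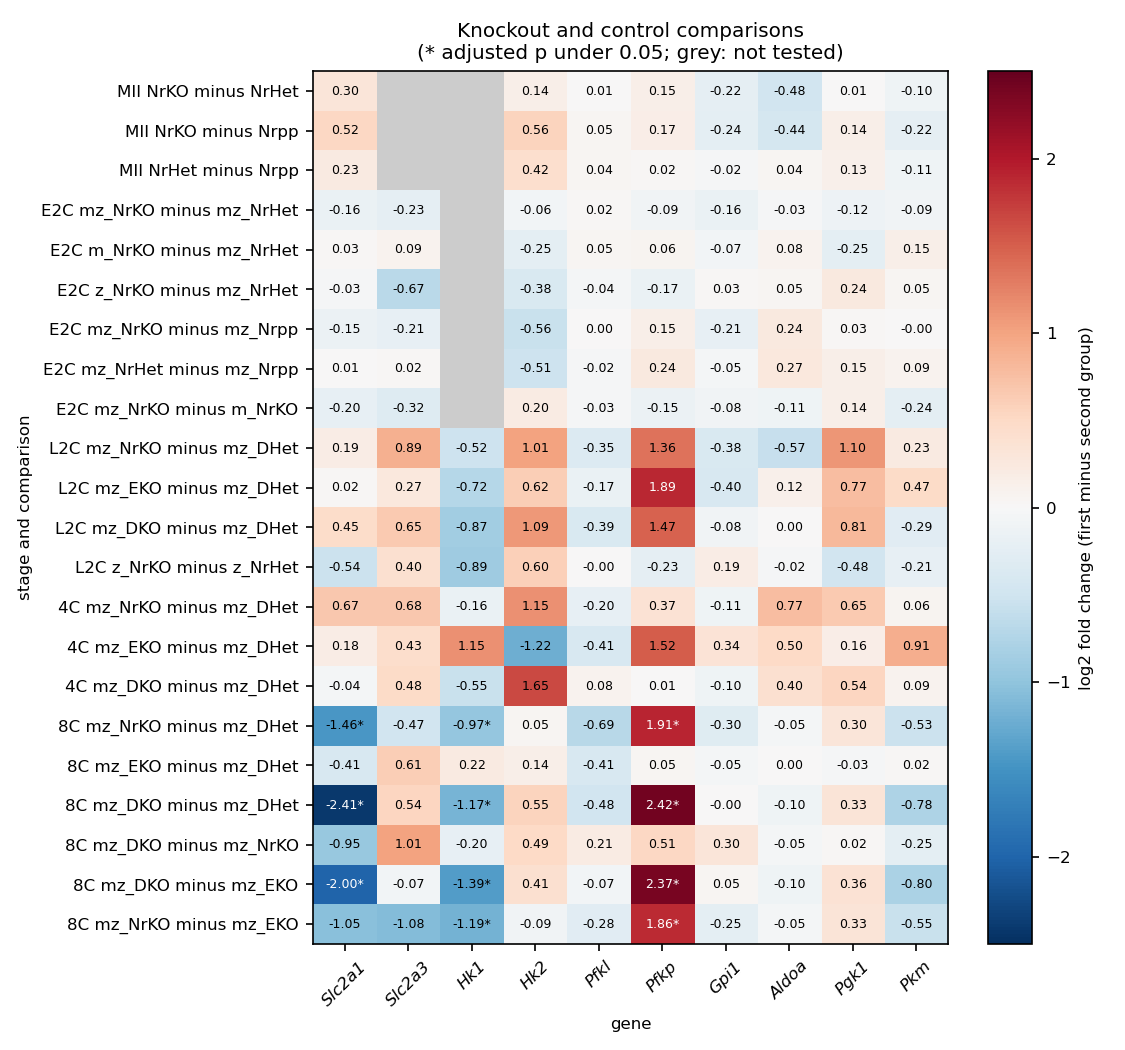
Log2 difference of each member (columns) in each of 22 comparisons of genotypes (rows), on the log2(TPM + 1) scale, coloured from lower (blue) to higher (red); asterisks mark an adjusted p under 0.05 and grey cells were not tested. Asterisks stand only in the 8C rows, on Slc2a1, Hk1 and Pfkp, with -2.41 for Slc2a1 and 2.42 for Pfkp in mz_DKO against mz_DHet.

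Whether the 8C effects were larger than those at L2C was tested directly. Slc2a1 in mz_DKO was the 1 member called, its difference at 8C being lower than that at L2C (0.45 ± 0.80 SE) by a further -2.94 ± 0.89 SE (adjusted p = 0.0302), where 5.65% of genes were called. That call was lost with a pseudocount of 0.1 TPM, with no filter and in UMI reads (-1.68 ± 0.95 SE, adjusted p = 0.4). Hk1 (-0.36 ± 0.61 SE) and Pfkp (1.41 ± 0.92 SE) were not called in mz_DKO. For mz_NrKO no member was called, with none at an unadjusted p under 0.05 and 1.95% of genes called; Slc2a1 stood at -1.79 ± 0.91 SE (adjusted p = 0.34) and Pfkp at 1.42 ± 0.94 SE (adjusted p = 0.518). For mz_EKO none was called or under an unadjusted p of 0.05, with 0% of genes called and 1015 at an unadjusted p under 0.05. The absence of a call at L2C therefore does not set Hk1 or Pfkp apart from their 8C differences.

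The 8C embryos fall on 3 dates. Of the controls, 2 are of 23 February 2022, 15 of 8 March and 4 of 15 July, the mz_NrKO embryos divide as 1, 6 and 3, and the other knockouts as 1, 9 and 0. Control levels differed by date. The mz_DHet medians of 8 March and 15 July were 13.7 and 3.01 TPM for Slc2a1, 35.8 and 7.75 TPM for Hk1, 84.5 and 16.9 TPM for Hk2, and 93.6 and 200 TPM for Slc2a3. Within 8 March alone, mz_NrKO differed in Slc2a1 by -2.10 ± 0.55 SE (adjusted p = 0.00339), in Hk1 by -1.08 ± 0.28 SE (adjusted p = 0.00327) and in Pfkp by 2.29 ± 0.47 SE (adjusted p = 0.000222). In mz_DKO the values of that date were -2.53 ± 0.48, -1.31 ± 0.25 and 2.37 ± 0.41 SE. Within 15 July, with 3 mz_NrKO and 4 mz_DHet embryos, Pfkp was called (2.31 ± 0.56 SE, adjusted p = 0.048), and Slc2a1 (-0.84 ± 0.75 SE, adjusted p = 0.526) and Hk1 (-0.54 ± 0.66 SE, adjusted p = 0.648) were not. The date of 23 February holds too few embryos for a fit.

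Leaving out the libraries labelled mz_NrKO 1 and mz_DHet 2 kept the 3 calls in each Nr5a2 knockout. In mz_NrKO, Slc2a1 was then -1.73 ± 0.46 SE (adjusted p = 0.00273), Hk1 -0.92 ± 0.26 SE (adjusted p = 0.00487) and Pfkp 2.35 ± 0.39 SE (adjusted p = 3.64e-06). In mz_DKO they were -2.42 ± 0.45, -1.18 ± 0.26 and 2.53 ± 0.38 SE. Slc2a3 was then also lower in mz_NrKO than in mz_EKO (-1.34 ± 0.44 SE, adjusted p = 0.0186). Against mz_EKO, without these libraries, mz_NrKO was -1.13 ± 0.31 SE in Hk1 (adjusted p = 0.00513) and 2.19 ± 0.46 SE in Pfkp (adjusted p = 0.000266), and limma called Slc2a1, Hk1 and Pfkp in mz_DKO.

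The 5′ UMI reads of 8C come from the same embryos as full-length libraries and are no independent sample. The UMI library labelled mz_DHet 12 stood apart. It listed Cdx2 at 0 and held 5.07 TPM of Pfkp, against 0 to 1.55 TPM in the other controls, and its profile correlated best with the full-length library labelled mz_NrKO 7 (r = 0.76, against -0.40 with that of its own title). All 39 UMI libraries of 8C correlated best with a full-length library of 8 March, whatever the date in their labels, so a date factor in these reads rests on dates that the match goes against. Without the date factor and that library, mz_NrKO differed by 2.39 ± 0.40 SE in Pfkp (adjusted p = 1.27e-05), -1.77 ± 0.44 SE in Slc2a1 (adjusted p = 0.00181) and -0.71 ± 0.23 SE in Hk1 (adjusted p = 0.0187). In mz_DKO the values were 1.73 ± 0.32, -1.75 ± 0.36 and -1.24 ± 0.19 SE, all called. With that library kept, Hk1 in mz_NrKO was not called, either with the date factor (-0.57 ± 0.31 SE, adjusted p = 0.18) or without it (-0.55 ± 0.30 SE, adjusted p = 0.191), while Pfkp (2.27 ± 0.42 SE in both) and Slc2a1 (-1.66 ± 0.46 and -1.65 ± 0.46 SE) were, as were all 3 in mz_DKO.

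Within the pairs, the shares stood differently by genotype. The Pfkp share of both phosphofructokinases had a median of 13.3% in mz_DHet (range 0 to 48%), 13.6% in mz_EKO (0 to 46.6%), 55.1% in mz_NrKO (1.93 to 92.6%) and 58.1% in mz_DKO (15.4 to 86.1%). The Slc2a3 share of the transporters was 89.3% in mz_DHet (61.4 to 100%), 98.6% in mz_NrKO (70.8 to 100%) and 99.8% in mz_DKO (96.3 to 100%). The Hk1 share of the hexokinases was 32.2% in mz_DHet (13.9 to 91.1%), 23.7% in mz_NrKO (2.25 to 42.6%) and 12.6% in mz_DKO (2.69 to 32.4%). These shares are descriptions of the values above, and all their ranges overlap.

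The same 8C embryos were read for other genes of glucose metabolism, in lists drawn from textbook pathways. Ldha, which converts pyruvate to lactate, had a median of 8.4 TPM in mz_DHet (range 0 to 138), 99.1 TPM in mz_NrKO (4.06 to 617) and 140 TPM in mz_DKO (24.5 to 386), with log2 differences of 3.19 ± 0.59 SE (adjusted p = 3.7e-05) and 3.66 ± 0.59 SE (adjusted p = 2.31e-06). Bsg, the chaperone of the lactate transporters, was lower by -0.83 ± 0.16 SE in mz_NrKO and -0.65 in mz_DKO. The lactate list had no other call among 5 of its 9 genes tested, beside 28.3% of all genes called in mz_NrKO and 33.7% in mz_DKO.

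Of 26 further glycolysis genes 15 were tested, in comparisons where 28.3% of all genes were called in mz_NrKO and 33.7% in mz_DKO. In mz_NrKO 1 was higher, Bpgm, which makes 2,3-bisphosphoglycerate, and 3 were lower: Slc2a8, a glucose transporter, Pfkfb4, which sets the level of an activator of phosphofructokinase, and the enolase gene Eno3. Bpgm had a median of 5.55 TPM in mz_DHet (range 0 to 31.1), 45.1 TPM in mz_NrKO (4.45 to 75.4) and 55.2 TPM in mz_DKO (24.4 to 72.7), with differences of 2.68 ± 0.35 SE and 2.91 ± 0.35 SE (adjusted p = 5.28e-09). In mz_DKO, Bpgm and Eno2 were higher and Pfkfb4, Slc2a8, Pfkfb2, Pgam2 and Eno3 lower. Slc2a8 had medians of 123, 46.4 and 77.2 TPM in mz_DHet, mz_NrKO and mz_DKO. The median difference of the list was -0.17 in mz_NrKO and -0.22 in mz_DKO.

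In the pentose phosphate pathway, which branches from glucose 6-phosphate, 7 of 8 genes were tested, with 1 higher and 3 lower in mz_NrKO and 1 higher and 2 lower in mz_DKO, beside 28.3% and 33.7% of all genes called in the same comparisons. Rpia was higher in both Nr5a2 knockouts, by 0.85 ± 0.21 SE in mz_NrKO and 1.19 in mz_DKO, Taldo1 and Pgd were lower in both, and Tkt was lower in mz_NrKO. In the hexosamine pathway limma called 0 of the 6 genes tested in either. Among 9 genes of glycogen and gluconeogenesis, Pck2 was higher in both (1.23 in mz_NrKO and 2.24 in mz_DKO), Ugp2 lower in both (-0.92 in mz_NrKO), and G6pc3 higher in mz_NrKO and Fbp2 in mz_DKO.

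Among regulators of glycolysis, of 10 tested, 2 were higher and 5 lower in mz_NrKO, beside 28.3% of all genes called, and 2 were higher and 4 lower in mz_DKO, beside 33.7%. Epas1, which encodes the hypoxia-inducible factor HIF2 alpha, had a median of 62.2 TPM in mz_DHet (range 19.7 to 126), 88.4 TPM in mz_EKO (58.5 to 132), 8.24 TPM in mz_NrKO (1.13 to 51.1) and 13.3 TPM in mz_DKO (0.217 to 31.1), with differences of -2.77 ± 0.33 SE in mz_NrKO (adjusted p = 1.37e-08) and -2.74 ± 0.34 SE in mz_DKO. Mycn, a MYC family transcription factor, had a median of 0.997 TPM in mz_DHet (0 to 22.4), 16.9 TPM in mz_NrKO (2.23 to 133) and 27.3 TPM in mz_DKO (9.31 to 124), with differences of 2.96 ± 0.47 SE and 3.58 ± 0.48 SE. Vhl, which marks HIF for degradation, was higher, and the prolyl hydroxylase gene Egln1, the phosphatase gene Tigar and Mlx, the partner of the glucose-sensing factor ChREBP, were lower in both. Egln3 was lower in mz_NrKO. In mz_EKO and between mz_DKO and mz_NrKO limma called none in any of these lists. Without the libraries labelled mz_NrKO 1 and mz_DHet 2, Eno2 was also higher and Slc16a1, Ogt and Myc also lower in mz_NrKO, and Uap1 was also higher in mz_DKO. The differences of mz_NrKO were then 3.93 ± 0.52 SE for Ldha, 3.00 ± 0.33 SE for Bpgm, 3.24 ± 0.48 SE for Mycn and -3.07 ± 0.33 SE for Epas1.

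**Figure D5:**
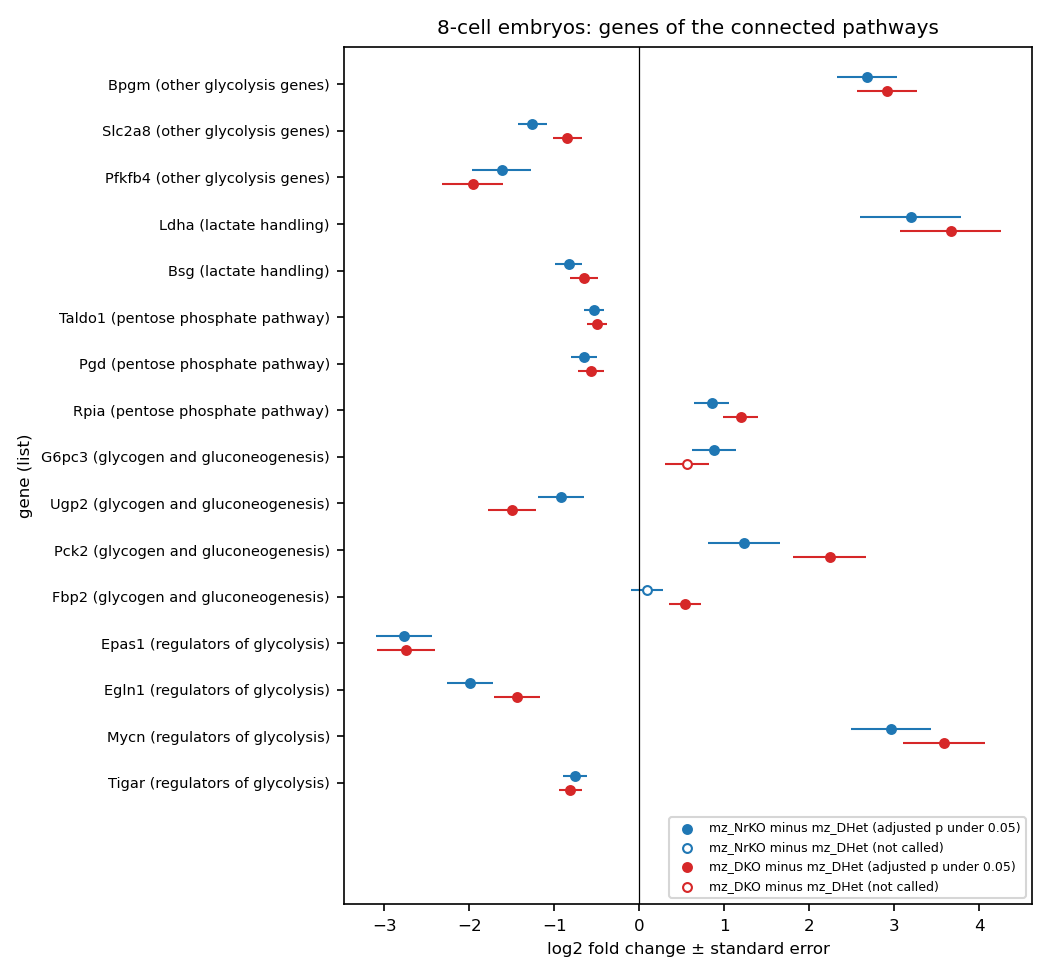
Log2 difference with its standard error at 8C, on the log2(TPM + 1) scale, of genes from the glucose metabolism lists in mz_NrKO (blue) and mz_DKO (red) against mz_DHet; filled points have an adjusted p under 0.05. Ldha, Bpgm and Mycn lie furthest to the higher side, and Epas1 furthest to the lower.

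Markers of stage moved with the same groups, in comparisons where 28.3% of all genes were called in mz_NrKO and 33.7% in mz_DKO. Of 6 genes that mark the step from 8 cells to the morula, 3 were lower in mz_NrKO (Cdx2, Tfap2c and Gata3, and also Nanog without the libraries labelled mz_NrKO 1 and mz_DHet 2) and 5 in mz_DKO, and their summed level had a median of 1007 TPM in mz_DHet (range 182 to 1707), 427 TPM in mz_NrKO (159 to 2394) and 373 TPM in mz_DKO (101 to 875). Of 8 genes of the early 2-cell burst 2 were tested, Tcstv1 and Tcstv3, and both were higher in both knockouts. The sum over all 8 genes had a median of 8.95 TPM in mz_DHet (0 to 37.4), 69.7 TPM in mz_NrKO (1.27 to 207) and 99.7 TPM in mz_DKO (24.7 to 732). Of the oocyte genes, Zp3 alone was tested and was higher in both. The sum over 6 oocyte genes had medians of 20.8 TPM (4.62 to 59.1), 57.3 TPM (11 to 152) and 102 TPM (23 to 155) in the same order. Cumulus cell markers summed to at most 7.9 TPM in any 8C library, with Has2, Ptx3, Fshr and Inha listed at 0 in all of them, and none was tested. Blood markers, of which none was tested either, had summed medians of 0, 4.81 and 8.61 TPM. Of the oviduct list 2 genes were tested, and Krt19 was higher in both knockouts. The sum over its 5 genes was not higher there, with medians of 172 TPM in mz_DHet (38.2 to 504), 110 TPM in mz_NrKO (34.4 to 825) and 147 TPM in mz_DKO (50.6 to 341). The part of these markers in the differences of Slc2a1, Hk1 and Pfkp was not tested.

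Across the means of all 22 groups, the members fell into opposed courses. Slc2a3 and Hk1 ran together (Pearson r = 0.94), as did Gpi1 and Pkm (0.80) and Hk1 and Aldoa (0.75), while Slc2a1 ran against Slc2a3 (-0.88) and Hk1 (-0.77), and Pfkl against Aldoa (-0.71). Groups of one stage share dates and processing, so these values describe the profiles. By the same measure over 6245 genes, the profile most like that of Slc2a1 was Rab4a (0.980), of Slc2a3 Pemt (0.985), of Hk1 Psmc4 (0.972), of Hk2 Isoc1 (0.936) and of Pfkp Jam2 (0.907). For Pfkl it was Slc25a32 (0.967), for Gpi1 Ino80e (0.951), for Aldoa Ap2m1-ps (0.981), for Pgk1 Fech (0.853) and for Pkm Rbpms2 (0.972). Aldoa and Pgk1 have related copies, Aldoart1, Aldoart2, Pgk1-rs7 and Pgk2, with which reads could be shared, so their levels are uncertain to that extent. None of these copies passed the filter at 8C, and their levels at the other stages are not given here.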

How the data were processed

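The authors' deposited tables give TPM per gene and library, from full-length reads and, for L2C, 4C and 8C, from 5′ UMI reads. Per the submitters' processing notes the tools were cutadapt, STAR, RSEM and DESeq2 on mm10, and their versions are not given in the sources used here. The authors' own calls, per the file headers, required over 10 TPM in at least 1 sample, a 1.5-fold change and an FDR under 0.1. The deposited log2 fold changes and the authors' p-values (FDR) are quoted as theirs. Of 514 samples, 263 full-length and 110 UMI libraries had a column, and the other 141 were not analysed here. Entries without a gene name, 65 in the full-length data, were left out.

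TPM were tested as log2(TPM + 1) with limma 3.58.1 (R 4.3.3, trended variance), on genes that reached 5 TPM in a number of libraries no smaller than the size of the smallest group fitted. A stage was fitted as a whole, with a common spread for its groups and the date of the labels as a factor. P-values were two-sided and adjusted by Benjamini-Hochberg over all genes tested. The fold changes understate those of low genes, and since TPM keep no depth, no counting interval is given. Scripts were tested on simulated data. The members, the other gene lists and the tests were chosen with earlier results of these data known. The text names all members, and from the other lists the genes called.

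In MII NrHet against Nrpp all 9 pairs of libraries with the same replicate number correlated above 0.1 (lowest 0.11). Such libraries share a date there, and in only 1 pair was the library of the same number the best match. The numbers were therefore not shown to pair samples. With the number as a replicate block, that comparison called 8 genes in place of 3, and still 0 members. Tables, figures and promoter windows were made with Python 3.11.15, pandas 2.3.3, numpy 2.4.6 and matplotlib 3.10.9.

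UMI libraries matched the full-length library of the same title best in 42 of 46 cases at L2C, in 25 of 25 at 4C and in 0 of 39 at 8C, where 38 matched one of the same genotype. Numbers at 8C were therefore not joined between read types.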

Additional observations from a re-analysis of the deposited data

Results flagged for a closer look

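Dixon's test was run 140 times, each for 1 member in 1 group of 4 to 10 libraries. In 6 of these tests a value lay far from the rest of its group, a share not above the 1 in 20 that chance gives. Hk1 was 8.49 TPM in L2C mz_DKO replicate 1, with 1.43 to 3.01 TPM in the other embryos of that group. Hk2 was 0.772 TPM in 4C mz_EKO replicate 3, above 0 to 0.0759 TPM in the others, so the whole group was near 0. Pfkl was 12.6 TPM in L2C z_NrKO replicate 2, below 43.6 to 83.9 TPM. Gpi1 was 50.4 TPM in L2C mz_DHet replicate 4, below 91.9 to 144 TPM. Pgk1 was 62.1 TPM in 4C mz_DKO replicate 1, above 20 to 32.1 TPM. Pkm was 139 TPM in L2C mz_NrKO replicate 7, below 277 to 521 TPM.

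The difference of Slc2a1 between mz_DKO and mz_DHet was lower at 8C than at L2C by -2.94 on the log2 scale, the only member for which the test between stages passed (limma, adjusted p = 0.0302).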

How the results depend on the processing

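Of 288 pairs of a member and a comparison, 40 were called, and none of these changed sign under any alternative run. Of the 237 pairs called in no fit, 141 changed sign in at least 1 alternative. Leaving out single libraries of 8C, or the 8C libraries labelled mz_NrKO 1 and mz_DHet 2, was chosen after seeing the data. So were development without a date factor or from UMI reads, and UMI reads without a date factor. The number of members called moved from 0 to 1 in MII NrKO against Nrpp with only 5 June (Pgk1, 0.99, and -0.38 with only 20 June), in E2C mz_NrKO against mz_Nrpp with no date factor (Hk2, -1.10) and with median-of-ratios scaling (Aldoa), and in the mz_NrKO effect at 8C against L2C with no date factor (Slc2a1). It moved from 3 to 1 in 8C mz_NrKO with only 15 July 2022 (Pfkp), which leaves 3 and 4 embryos. It moved from 1 to 0 in the mz_DKO effect at 8C against L2C with a pseudocount of 0.1, with no filter on low values and in UMI reads. Leaving out 1 library gave 0 to 1 members in E2C mz_NrKO against mz_Nrpp and 0 to 1 in 4C mz_NrKO. In UMI reads Slc2a1 from 4C to 8C mz_DHet was -0.66. Beyond the differences in fitted samples or genes, the cause of these moves was not tested.

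With the replicate number as a block, 3 members were again called in each Nr5a2 knockout at 8C. The number of members called was unchanged in every comparison of genotypes, and in none of these were the replicate numbers shown to pair samples. Numbers of genes called over the whole table moved more: at 8C 556 to 3599 in mz_NrKO (3075 as reported) and 2980 to 4203 in mz_DKO (3669), and at L2C 0 to 1527 in mz_NrKO (18). At E2C, without mz_NrKO replicate 1, m_NrKO against mz_NrHet had 409 genes in place of 32. Slc2a3 in 8C mz_NrKO against mz_EKO was called without any one of mz_EKO 8, mz_EKO 9, mz_NrKO 1 and mz_NrKO 3. The depth of each library is unknown, and the low TPM of Slc2a1 and Pfkp limit their fold changes.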

Other observations

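At E2C, where no member was called, other genes of glucose metabolism differed between mz_NrKO and mz_NrHet embryos, beside 5.17% of all genes called (limma). Bpgm had a median of 1244 TPM in mz_NrHet (range 696 to 2019, n = 29) and 2054 TPM in mz_NrKO (325 to 3010, n = 22), a log2 difference of 0.68 ± 0.13 SE (adjusted p = 0.000448). Txnip, an inhibitor of glucose uptake, had medians of 45.9 and 71.4 TPM and was higher by 0.63 ± 0.18 SE (adjusted p = 0.0183). Ldha had a median of 73.4 TPM in mz_NrHet (27.7 to 219) and 41.5 TPM in mz_NrKO (6.29 to 86.3), and was lower by -0.70 ± 0.22 SE (adjusted p = 0.0431), the direction opposite to that at 8C. Pgm3 (-1.14 ± 0.31), Pygm (-1.28 ± 0.38), Gbe1 (-0.61 ± 0.18) and Rpia (-0.33) were lower as well. All 8 genes of the early 2-cell burst were lower in the same embryos, with summed levels of 1756 TPM in mz_NrHet (63.3 to 6863) and 209 TPM in mz_NrKO (7.8 to 1304), and their part in these differences was not tested. Ldha and Bpgm also had a larger difference at 8C than at L2C in both mz_NrKO and mz_DKO, and Epas1 and Egln1 a lower one.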
